A study of Mus musculus with 4 samples.

Results

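The fibroblast growth factor (FGF) genes described here are 6 ligand genes (Fgf4, Fgf5, Fgf8, Fgf10, Fgf15 and Fgf17) and 4 receptor genes (Fgfr1, Fgfr2, Fgfr3 and Fgfr4). They were found by gene symbol and make up 10 of the 23420 genes counted by RNA sequencing in 4 libraries, and all 10 passed the filter on low counts. The cells were wild-type E14 mouse embryonic stem cells, a line that grows without feeder cells on gelatin, in serum medium with leukemia inhibitory factor. A pair of libraries came from cells given 1 µM all-trans retinoic acid (ATRA), which activates the nuclear retinoic acid receptors, for 24 h, and the other pair from control cells at 0 h. ATRA and 24 h of further culture cannot be told apart in this design, and the labels do not say whether the 0 h cells had the solvent dimethyl sulfoxide. The dose follows the sample titles, since another label gives the same number in millimolar. No label states that replicates were separate cultures, so p-values measure how far these libraries spread, and that spread may be technical.

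FGF ligands are secreted proteins that bind receptor tyrosine kinases together with heparan sulfate on the cell surface. The receptors signal through the adaptor FRS2, GRB2 and RAS to the kinase ERK, which switches on its own inhibitors, among them the Sprouty proteins and the phosphatase DUSP6. In mouse embryonic stem cells FGF4 is the main ligand the cells make for themselves, and its signal through ERK prepares them to leave the naive state. In the embryo, FGF8 and its close relative FGF17 act in the primitive streak, tail bud and midbrain-hindbrain border, and retinoic acid and FGF8 oppose each other along the body axis.

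Counts in genes came to 13337972 and 11086233 in ATRA replicates 1 and 2, and to 31005634 and 21484812 in control replicates 1 and 2. Levels are given as CPM, counts scaled to library size with edgeR's TMM factors. All 8 embryonic stem cell markers checked were detected in every library, at summed levels of 1022 and 1034 CPM with ATRA and 3232 and 3190.3 CPM in the controls. The ATRA libraries also stood apart by transcript GC content. When genes were divided by GC content into 10 equal groups, ATRA replicate 2 over ATRA replicate 1 had a median log2 ratio of −1.31 in the group of highest GC content and 0.85 in that of lowest. The same ratio of the controls was −0.31 and −0.01. The median log2 fold change of ATRA over control was −1.72 in the group of highest GC content and 1.03 in that of lowest. Fold changes of the FGF genes are therefore given without and with a correction that removes any GC-related difference between libraries, technical or biological.

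After 24 h of ATRA, Fgf8 and Fgf17 fell, 14.3-fold and 7.28-fold, and by 3.98-fold and 2.41-fold with GC correction. Fgf4 and Fgf5 were lower in both ATRA libraries and passed the edgeR test after GC correction but not before it. Fgfr2 was 2.73-fold higher in both fits and likewise passed after the correction. Fgf15, Fgf10, Fgfr3 and Fgfr4 passed in neither fit, and the direction of Fgfr1 turned with the correction.

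Without correction 2 of the 10 genes fell and 0 rose (quasi-likelihood F test in edgeR, p adjusted by Benjamini and Hochberg's method over 14256 genes, threshold 0.05, 2 libraries against 2). At an unadjusted p under 0.05 the count was 5 of 10, against 41.7% of all genes tested. Over all genes 0.407% fell and 0.723% rose. With GC correction 4 of the 10 fell and 2 rose, against 7.69% and 8.54% of all genes. Both ATRA libraries lay below both controls for 6 of the 10 genes and above them for 3, shares that do not set the genes apart, since 41.5% and 40.0% of all genes tested did the same. An earlier quasi-likelihood method of edgeR, tried after seeing the data, called 0 of the 10, with adjusted p of 0.0643 for Fgf8 and 0.0510 for Fgf17, and 0.603% of all genes. With GC correction that method called 6 of the 10, against 16.7% of all genes. DESeq2 called 5 of the 10, against 30.1% of the 14183 genes to which it gave an adjusted p.

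**Figure D1:**
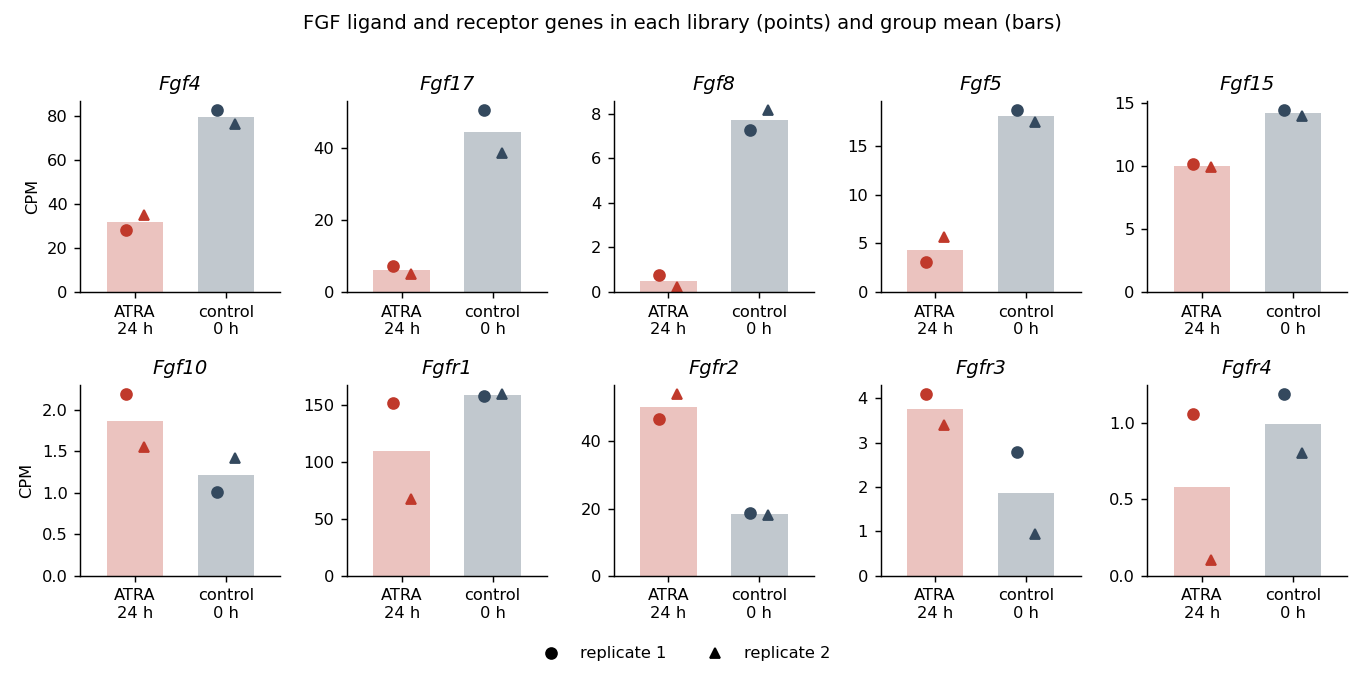
Level of each FGF ligand and receptor gene in CPM (vertical axis from 0, scaled per gene) in ATRA and control libraries. Points are single libraries and bars are the means of 2. Fgf4, Fgf17, Fgf8, Fgf5 and Fgf15 lie lower in both ATRA libraries and Fgfr2 higher, while the 2 ATRA libraries of Fgfr1 stand at 152 and 67.2 CPM.

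Fgf8 (chr19:45736491-45742941, minus strand, RefSeq coordinates on GRCm38.p6, as for all genes here) encodes a ligand of the streak, limb bud and midbrain-hindbrain border. It had 11 and 2 counts in ATRA replicates 1 and 2, or 0.778 and 0.206 CPM, against 232 and 183 counts, or 7.27 and 8.15 CPM, in control replicates 1 and 2. Both ATRA libraries were far below both controls, and little more than a trace of the transcript was counted in the second. Its log2 fold change was −3.84 ± 0.55 (SE, edgeR adjusted p = 0.0468), and −1.99 ± 0.42 with GC correction (edgeR adjusted p = 0.0394). Summed over each group, its level with ATRA was 0.0714 of that in the controls, with an exact 95% counting interval from 0.0377 to 0.123 that covers counting error only. At 62.8% GC, its transcript was in the group of highest GC content. Without ATRA replicate 1 the log2 fold change was −5.19. With GC correction the call was lost without ATRA replicate 1 (edgeR adjusted p = 0.141), control replicate 1 (0.169) or control replicate 2 (0.227).

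Fgf17 (chr14:70636203-70642268, minus strand) encodes a ligand of the same subfamily as FGF8. It stood at 7.21 and 4.95 CPM with ATRA (102 and 48 counts), against 50.6 and 38.7 CPM in the controls (1614 and 868 counts). The groups did not overlap and lay farther apart than the replicates of either. The log2 fold change was −2.86 ± 0.37 (edgeR adjusted p = 0.0399), and −1.27 ± 0.26 with GC correction (0.0383). Its transcript had 58.1% GC. The uncorrected call was lost without control replicate 1 (edgeR adjusted p = 0.0731).

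Markers of the primitive streak and early mesoderm moved with these genes. The 8 checked summed to 27.6 and 31.1 CPM with ATRA, against 225 and 186 CPM in the controls. Of the 6 tested 2 fell (4 with GC correction), against 0.407% of all genes (7.69% with GC correction). In each ATRA library 6 of the 8 were detected, and all 8 in each control, but the controls had more counts, so depth differs too. T, the defining gene of the streak, stood at 8.06 and 11.9 CPM with ATRA and 147 and 122 CPM in the controls. Gsc had 0 counts in both ATRA libraries and 10 and 2 in control replicates 1 and 2. Mesp1 had 0 and 1 with ATRA and 1 and 6 in the controls, where the groups overlapped. Both were too scarce to be tested. Evx1 had 1 and 0 with ATRA and 104 and 59 in the controls. The part of such cells in the falls of Fgf8 and Fgf17 was not tested, and in bulk libraries fewer cells of a type and less RNA per cell cannot be told apart.

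Fgf4 (chr7:144861386-144865245, plus strand) encodes the autocrine ligand of embryonic stem cells and is a known target of OCT4 and SOX2. It had 28.3 and 35.1 CPM with ATRA (400 and 340 counts), against 82.3 and 76.1 CPM in the controls (2627 and 1709 counts). Both ATRA libraries were below the lower control, and neither group had a library standing apart. The log2 fold change was −1.32 ± 0.28, which missed the threshold (edgeR adjusted p = 0.0636), and −1.18 ± 0.19 with GC correction, which passed it (0.0240). Its transcript had 50.8% GC, near the median of all genes tested (50.2%), and the correction moved its value little. Of the 8 stem cell markers summed above, 3 fell without correction and 6 with it, against 0.407% and 7.69% of all genes tested. Sox2 passed in neither fit (−0.13, edgeR adjusted p = 0.806, and −0.02 corrected, 0.968). It stood at 136 and 273 CPM with ATRA and 229 and 217 CPM in the controls. Pou5f1, the gene of OCT4, stood at −2.61 (edgeR adjusted p = 0.0621) and passed with GC correction (−1.27, 0.0115). The part of these markers in the level of Fgf4 was not tested.

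Fgf5 (chr5:98254184-98277033, plus strand) encodes a ligand of the formative and primed epiblast. It was at 3.04 and 5.67 CPM with ATRA (43 and 55 counts) and at 18.7 and 17.5 CPM in the controls (596 and 393 counts). The higher ATRA library was still well below the lower control. Its log2 fold change was −2.08 ± 0.41 (edgeR adjusted p = 0.0611), and −2.46 ± 0.26 with GC correction (0.0115). Corrected, Fgf5 was 5.52-fold lower, more than Fgf8 and Fgf17, although its uncorrected fold was smaller than theirs.

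**Figure D2:**
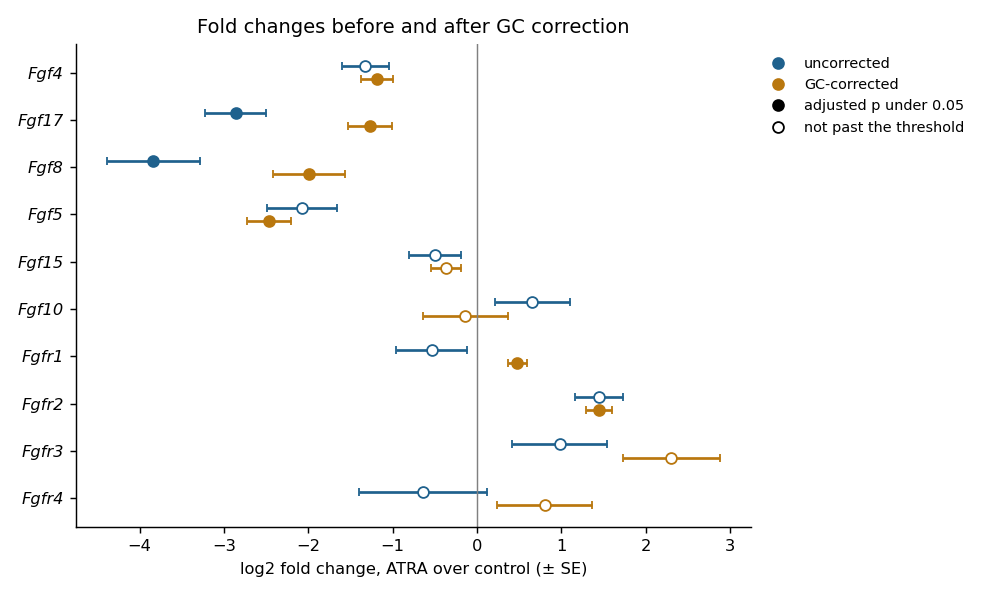
Log2 fold change of ATRA over control for each gene (horizontal axis, bars are ± 1 SE) without and with GC correction. Filled points pass an adjusted p of 0.05. Fgf8 and Fgf17 move toward 0 with the correction, to −1.99 and −1.27, Fgf5 moves away from 0, and Fgf4 and Fgfr2 hardly move.

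Fgf15 (chr7:144896532-144900953, plus strand), 31286 bases beyond Fgf4, encodes the mouse counterpart of human FGF19, a ligand of the developing neural tube and gut. It stood at 10.1 and 9.90 CPM with ATRA (143 and 96 counts) and at 14.4 and 13.9 CPM in the controls (459 and 313 counts). Replicates lay close together and the groups did not overlap, yet neither the uncorrected value of −0.50 ± 0.31 (edgeR adjusted p = 0.242) nor the corrected one of −0.36 ± 0.18 (0.192) passed. Fgf15 and Fgf4 have the same GC content to the first decimal (50.8%), so their ratio within a library is little touched by the GC trend. There were 0.357 and 0.282 Fgf15 reads for each Fgf4 read with ATRA, against 0.175 and 0.183 in the controls. The ratio was higher in both ATRA libraries, by 0.83 on the log2 scale. With 2 libraries against 2 an exact permutation test cannot go below p = 0.333 (two-sided), so no test of it is given.

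Fgf3, the next FGF gene on the other side of Fgf4 (18037 bases away), had too few counts to be tested. It had 6 and 1 counts with ATRA and 26 and 12 in the controls, a ratio of 0.420 in level over the summed counts with a 95% counting interval from 0.158 to 0.952. Of the 3 neighbouring ligand genes, each was at a lower level in both ATRA libraries than in both controls, as were 41.5% of all genes tested. Fgf3, at 56.7% GC, lies within the range of a GC group whose uncorrected median log2 fold change was −1.31. Of the 3 genes, Fgf4 alone passed a test, with GC correction.

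Fgf10 (chr13:118714699-118792573, plus strand), which encodes a ligand of limb and lung mesenchyme, was scarce. Its levels were 2.19 and 1.55 CPM with ATRA (31 and 15 counts) and 1.00 and 1.43 CPM in the controls (32 and 32 counts). The ATRA libraries stood only just above the controls. Its log2 fold change of 0.66 ± 0.44 (edgeR adjusted p = 0.276) did not pass and turned to −0.14 ± 0.50 with GC correction (0.860), where the groups overlapped. Its transcript, at 41.6% GC, lay in the group of lowest GC content.

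Levels of different genes were compared per kilobase of the longest coding transcript. Over 18 secreted FGF ligand genes these levels summed to 27.8 and 26.8 CPM per kilobase with ATRA, against 84.3 and 75.8 in the controls. On the GC-corrected scale, over the genes tested, the sums were 27.8 and 34.2 with ATRA and 63.9 and 61.3 in the controls. The ligand transcripts together were thus lower in level with ATRA on both scales. In the controls, without correction, Fgf17 (30.0 and 22.9 CPM per kilobase) and Fgf4 (27.2 and 25.1) led and overlapped each other. Fgf15 (7.95 and 7.70), Fgf5 (7.47 and 7.0) and Fgf8 (6.23 and 6.98) followed, with gaps between neighbours no wider than the spread within a pair of controls. The order changed with GC correction. Fgf4 (26.0 and 23.8) then stood above Fgf17 (15.9 and 14.01), followed by Fgf5 (8.55 and 7.86), Fgf15 (7.59 and 7.29) and Fgf8 (2.50 and 3.87), and Fgf5 and Fgf15 did not overlap but lay closer together than the controls of Fgf5.

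With ATRA the order of the 6 ligand genes began with Fgf4 (9.33 and 11.6 CPM per kilobase), Fgf15 (5.58 and 5.47) and Fgf17 (4.27 and 2.93), with no overlap between these. Fgf5 followed at 1.22 and 2.27, and Fgf8 (0.666 and 0.177) and Fgf10 (0.533 and 0.376) overlapped. With GC correction Fgf17 (4.82 and 7.97) and Fgf15 (5.50 and 6.08) overlapped, while Fgf8 (0.869 and 0.592) lay above Fgf10 (0.510 and 0.215). The share of Fgf17 in the summed uncorrected ligand level was 15.3% and 11.0% with ATRA and 35.5% and 30.2% in the controls. Fgf15 had 20.1% and 20.4% with ATRA and 9.43% and 10.2% in the controls, and Fgf4 33.5% and 43.2% with ATRA and 32.2% and 33.1% in the controls. With GC correction the share of Fgf17 was 17.3% and 23.3% with ATRA and 24.8% and 22.9% in the controls, where the groups overlapped. Corrected, Fgf15 had 19.8% and 17.8% with ATRA and 11.9% and 11.9% in the controls. The corrected share of Fgf4 turned round, to 33.0% and 37.5% with ATRA and 40.7% and 38.9% in the controls. The ratio of Fgf17 to Fgf4 counts depended on the GC correction. It was 0.255 and 0.141 with ATRA and 0.614 and 0.508 in the controls without correction, and 0.293 and 0.346 with ATRA and 0.340 and 0.328 in the controls with it.

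Fgfr1 (chr8:25518759-25575718, plus strand) encodes the main FGF receptor of embryonic stem cells. It had 152 and 67.2 CPM with ATRA (2147 and 652 counts), against 158 and 160.0 CPM in the controls (5048 and 3593 counts). ATRA replicate 1 was near the controls and ATRA replicate 2 far below them, so the ATRA replicates differed 2.26-fold from each other. Uncorrected, the log2 fold change was −0.54 ± 0.42 (edgeR adjusted p = 0.341). GC-corrected levels were 159 and 140.0 CPM with ATRA and 104 and 111 CPM in the controls, and the corrected value of 0.48 ± 0.11 passed the test (0.0478). The uncorrected value was −1.26 when ATRA replicate 2 was the only ATRA library, and −0.06 when ATRA replicate 1 was. Each of these fits holds 1 ATRA library, which shows no spread of its own, so no p is given. The direction of Fgfr1 thus depended on the GC correction.

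Fgfr2 (chr7:130162451-130266808, minus strand) encodes the receptor that, in its epithelial form, binds FGF10. It stood at 46.7 and 54.1 CPM with ATRA (660 and 525 counts), against 18.8 and 18.1 CPM in the controls (600 and 407 counts). Each ATRA library was well above each control, and replicates of both groups lay close together. The log2 fold change was 1.45 ± 0.29 uncorrected, which missed the threshold (edgeR adjusted p = 0.0603), and 1.45 ± 0.15 with GC correction, which passed it (0.0114). Its transcript has 49.9% GC. The call was also made with DESeq2 (adjusted p = 0.00155) and with its size factors in edgeR (adjusted p = 0.0493). In GENCODE M21 its exons overlap Ctbp2 on the same strand, and reads there could belong to either gene. Markers of extraembryonic endoderm, a tissue where Fgfr2 is active, moved with it. The 8 checked summed to 56.0 and 84.7 CPM with ATRA, against 26.5 and 27.2 CPM in the controls. Dab2 alone had 42.3 and 66.4 CPM with ATRA and 21.7 and 22.3 CPM in the controls. With GC correction 5 of the 6 tested rose, and 0 did without it (5 at an unadjusted p under 0.05, and 4 called by DESeq2). Over all genes the shares that rose were 8.54% and 0.723% (41.7% at an unadjusted p, 30.1% with DESeq2). With GC correction 2 markers each of neural progenitors (1 fell), trophoblast (0 fell) and fibroblasts (0 fell) also rose. Sox17 (4 and 2 counts with ATRA, 4 and 1 in the controls) and Afp (2 and 1 with ATRA, 0 and 2 in the controls) were near 0. The part of such cells in the level of Fgfr2 was not tested.

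The 6 calls made with GC correction, of Fgf4, Fgf5, Fgf8, Fgf17, Fgfr1 and Fgfr2, were all lost when either control replicate was left out, with edgeR adjusted p from 0.112 to 0.379. Over all genes that fit called 35 genes without control replicate 1 and 25 without control replicate 2, against 2313 with all libraries. Without correction, leaving out ATRA replicates 1 and 2 in turn gave −1.19 and −1.48 for Fgf4, −1.69 and −2.56 for Fgf5, and 1.54 and 1.35 for Fgfr2. Leaving out control replicates 1 and 2 in turn gave −1.28 and −1.39, −2.03 and −2.12, and 1.46 and 1.41. No p is given for these values, since a group of 1 library shows no spread of its own.

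The promoter windows taken from RefSeq matched 6 of the 10 genes. The 250 bases before the start site are printed for Fgf4, Fgf5 and Fgfr2, to compare the promoters of a pair of ligand genes that fell with GC correction with that of a receptor gene that rose with it. Capitals mark GGGCGG, the GC box bound by SP1 in many promoters, or AGTTCA, a half-site of retinoic acid response elements, each read on either strand.
Fgf4, chr7:144861136-144861385, plus strand, GRCm38.p6: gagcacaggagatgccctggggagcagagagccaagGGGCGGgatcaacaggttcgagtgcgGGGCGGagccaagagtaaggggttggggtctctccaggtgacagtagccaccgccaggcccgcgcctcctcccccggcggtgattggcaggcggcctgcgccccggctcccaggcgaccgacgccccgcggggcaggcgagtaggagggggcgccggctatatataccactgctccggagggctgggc
Fgf5, chr5:98253934-98254183, plus strand, GRCm38.p6: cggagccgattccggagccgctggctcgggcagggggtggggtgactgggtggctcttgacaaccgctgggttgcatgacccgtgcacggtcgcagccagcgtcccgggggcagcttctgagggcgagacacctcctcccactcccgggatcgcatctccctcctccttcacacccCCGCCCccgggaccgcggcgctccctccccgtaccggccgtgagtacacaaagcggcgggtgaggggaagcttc
Fgfr2, chr7:130266809-130267058, minus strand, GRCm38.p6: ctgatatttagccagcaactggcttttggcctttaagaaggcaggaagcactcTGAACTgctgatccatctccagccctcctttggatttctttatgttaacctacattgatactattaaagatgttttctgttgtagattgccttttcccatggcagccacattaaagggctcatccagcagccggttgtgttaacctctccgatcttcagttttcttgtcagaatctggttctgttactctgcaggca

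The promoters of Fgf4 (71.2% GC) and Fgf5 (70.8%) are rich in GC, with 2 GC boxes in Fgf4 and 1 in Fgf5. The Fgfr2 window has 44.0% GC, no GC box and 1 AGTTCA, on the opposite strand. Fgfr3, not printed, has 2 windows, of 66.8% and 72.8% GC, with 3 and 2 matches to GGGCGG. Those of Fgfr4 (64.0% GC) and Fgf10 (61.2% GC) hold 2 and 1, and none of these unprinted windows holds either half-site. The contrast between the printed promoters thus rests on the Fgfr2 window alone. Of 32851 RefSeq promoter windows of this length, 32.7% hold GGGCGG, 11.8% AGTTCA and 14.02% AGGTCA, the other half-site searched. Neither AGGTCA nor TATAAA (12.4% of windows) occurs in the 3 windows printed. Pairs of these half-sites in the same orientation, 2 or 5 bases apart, occur in 0.0365% and 0.0335% of windows and in none of the windows of the FGF genes above. A match describes the letters and says nothing of binding.

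Fgfr3 (chr5:33721724-33737068, plus strand) encodes a receptor that limits bone growth and is found on neural progenitors. It was at 4.10 and 3.40 CPM with ATRA (58 and 33 counts) and 2.79 and 0.935 CPM in the controls (89 and 21 counts). Both ATRA libraries were above both controls, but the controls differed 2.98-fold from each other. Its log2 fold change was 0.98 ± 0.56 (edgeR adjusted p = 0.217), and 2.31 ± 0.58 with GC correction (0.0532), just outside the threshold. With the correction it stood at 2.66 without ATRA replicate 1, 1.82 without ATRA replicate 2, 3.24 without control replicate 1 and 1.80 without control replicate 2. Uncorrected values were 1.99 without control replicate 1 and 0.42 without control replicate 2.

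Fgfr4 (chr13:55152818-55168759, plus strand), which encodes a receptor of liver and muscle, was scarce, and near the limit of detection in ATRA replicate 2. It had 15 and 1 counts with ATRA, or 1.06 and 0.103 CPM, and 38 and 18 counts in the controls, or 1.19 and 0.802 CPM. The groups overlapped. Neither the uncorrected log2 fold change of −0.64 ± 0.76 (edgeR adjusted p = 0.522) nor the corrected one of 0.80 ± 0.57 (0.340) passed.

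Between the receptors, Fgfr2 stood higher relative to Fgfr1 in the ATRA libraries. There were 0.307 and 0.805 Fgfr2 reads for each Fgfr1 read with ATRA, against 0.119 and 0.113 in the controls. On the GC-corrected scale the ratios were 0.287 and 0.392 with ATRA and 0.182 and 0.161 in the controls. Both ATRA libraries were above both controls on either scale, by 2.10 on the log2 scale uncorrected and 0.97 corrected, with no test for the reason given for Fgf15. Per kilobase, Fgfr2 made up 25.6% and 47.0% of the summed receptor level with ATRA and 11.9% and 11.5% in the controls. With GC correction that share was 24.3% and 30.0% with ATRA and 17.2% and 15.7% in the controls. In all 4 libraries Fgfr1 came before Fgfr2, and both far before Fgfr3 and Fgfr4, of which Fgfr4 was the higher in control replicate 2 (0.241 against 0.220 CPM per kilobase, uncorrected). In ATRA replicate 2 Fgfr1 and Fgfr2 were nearly level uncorrected, at 13.3 and 12.6 CPM per kilobase, and 27.8 and 12.7 with GC correction.

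**Figure D3:**
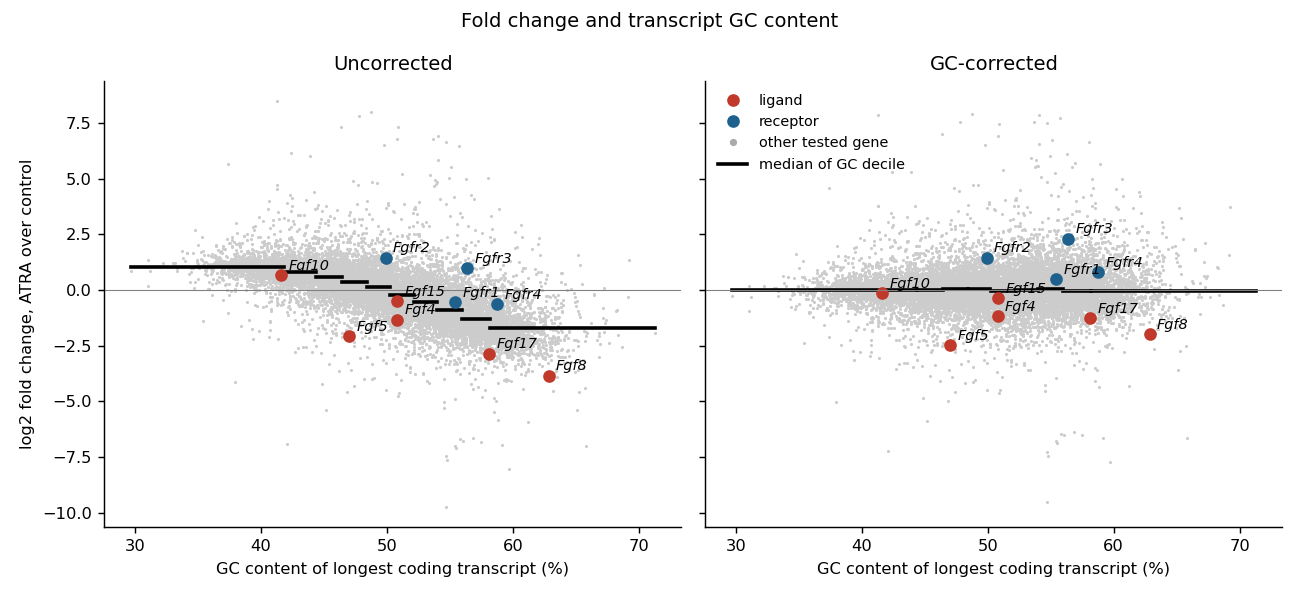
Log2 fold change of ATRA over control against transcript GC content for all genes tested (grey), with ligand genes in red and receptor genes in blue, without (left) and with (right) GC correction. Black lines are the medians of 10 equal groups of genes by GC content, which run from 1.03 down to −1.72 on the left. Fgf8 lies in the group where that median is lowest, Fgf17 in the group next to it (−1.31), and Fgf4, Fgf15 and Fgfr2 near the middle.

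The other secreted FGF ligand genes were mostly silent. Of 12, 2 had enough counts to be tested, and in edgeR 0 passed in either fit (1 at an unadjusted p under 0.05 in each, and 0 with DESeq2). Fgf1, the most abundant by CPM, stood at 7.49 and 8.77 CPM with ATRA and 4.11 and 4.81 CPM in the controls, with a log2 fold change of 0.86 (0.112 as edgeR adjusted p), and 0.59 corrected (0.115). The other gene tested, Fgf18, a ligand of bone and lung, had 3.64 and 1.23 CPM per kilobase with ATRA and 3.17 and 3.98 in the controls, against 1.88 and 2.20 with ATRA and 1.03 and 1.21 in the controls for Fgf1, so Fgf18 led per length in all libraries but ATRA replicate 2. The fold change of Fgf18 on the log2 scale was −0.50 (edgeR adjusted p = 0.482), and 0.60 corrected (0.226). Fgf2, often added to cultures of primed cells, had 3 and 0 counts with ATRA and 0 in both controls, and Fgf6 had 0 in all 4 libraries. Fgf21, an endocrine ligand of liver, had 1 and 0 counts with ATRA and 16 and 4 in the controls, a ratio of 0.114 in level with a 95% counting interval from 0.00275 to 0.713.

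Of the 4 FGF homologous factors, which stay inside the cell and act on sodium channels, 2 were tested and 0 passed in edgeR (2 at an unadjusted p under 0.05, 1 with GC correction, and 1 called with DESeq2). The most abundant, Fgf13, was at 18.5 and 33.2 CPM with ATRA and 11.4 and 10.8 CPM in the controls. Its log2 fold change was 1.21 (edgeR adjusted p = 0.0845), and 0.71 corrected (0.0737). Without correction, 41.7% of all genes tested had an unadjusted p under 0.05, and DESeq2 called 30.1%.

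Of 6 tested genes for FGF co-receptors and binding proteins, Fgfbp3 rose and 0 fell without correction, where 0.723% of all genes rose. Fgfbp3 encodes a secreted protein that frees FGFs from heparan sulfate. It was at 19.7 and 44.0 CPM with ATRA and 1.97 and 2.18 CPM in the controls, and both ATRA libraries were far above both controls. Its log2 fold change was 3.93 ± 0.51 (edgeR adjusted p = 0.0399), and 4.49 ± 0.60 with GC correction (0.0177). Uncorrected, leaving out ATRA replicate 1 gave 4.40 and leaving out ATRA replicate 2 gave 3.27. The earlier edgeR method gave an adjusted p of 0.0517. With GC correction it lost its call without control replicate 1 (0.143) or control replicate 2 (0.136), and leaving out ATRA replicate 1 gave 5.11, leaving out ATRA replicate 2 3.49. Flrt3, which encodes a membrane protein that binds FGF receptors, rose with GC correction (1.40, edgeR adjusted p = 0.0104) and stood at 2.27 without it (0.0549). The list's median log2 fold change was 0.43, or 0.39 corrected, against −0.02 and 0.02 over all genes tested.

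Most genes of the steps between receptor and ERK passed in neither fit. Of 17 tested transducers 0 passed uncorrected in edgeR (7 at an unadjusted p under 0.05, and 3 with DESeq2), and with GC correction 3 rose and 0 fell, with medians of −0.16 and 0.01. They were the exchange factor gene Sos2 (0.95, edgeR adjusted p = 0.0181, and 1.63 uncorrected), the kinase gene Braf (0.62, 0.0228, and 1.48 uncorrected) and the adaptor gene Shc1 (0.43, 0.0469, but −0.16 uncorrected). Hras was not analysed here. Over all genes tested, 41.7% had an unadjusted p under 0.05, and DESeq2 called 30.1% of those with an adjusted p. With GC correction 8.54% of all genes rose and 7.69% fell.

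Of 19 heparan sulfate genes 0 passed uncorrected in edgeR (9 at an unadjusted p under 0.05, and 8 with DESeq2), and the median was −0.35, or 0.00 corrected. With correction the glypican gene Gpc6 (2.02) and the sulfotransferase genes Hs6st1 (0.97) and Ndst2 (0.75) rose and the syndecan gene Sdc4 (−1.09) fell, while Hs6st1 and Ndst2 stood at −0.44 and −0.38 uncorrected. Gpc6 and Sdc4 stood at 2.02 and −1.01 uncorrected. The shares over all genes were 41.7% at an unadjusted p under 0.05, 30.1% with DESeq2, and 8.54% higher and 7.69% lower with GC correction.

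The listed ERK targets and feedback inhibitors went both ways. Of 14 targets and feedback inhibitors 0 passed uncorrected in edgeR (9 at an unadjusted p under 0.05, and 7 with DESeq2), and with GC correction 5 rose and 3 fell. Their median was −0.14, or 0.25 corrected. Of all genes tested, 41.7% had an unadjusted p under 0.05, DESeq2 called 30.1%, and 8.54% rose and 7.69% fell with GC correction. Corrected values that fell were those of the Sprouty genes Spry4 (−1.37, edgeR adjusted p = 0.00837) and Spry2 (−1.24, 0.0104) and of the ETS factor gene Etv5 (−1.28, 0.00561). Those that rose were of the phosphatase gene Dusp6 (1.23, 0.0135), the FGF antagonist gene Il17rd (0.90, 0.0110) and the inhibitor genes Spred1 (0.55), Spred2 (0.86) and Spred3 (1.40). Uncorrected, Spry4 stood at −1.57 (edgeR adjusted p = 0.0548), Spry2 at −0.78 and Etv5 at −1.58. Uncorrected values were 1.35 for Dusp6 (edgeR adjusted p = 0.0623), 0.88 for Il17rd, 1.51 for Spred1, 0.63 for Spred2 and 0.24 for Spred3. Spry4 had 45.1 and 44.0 CPM with ATRA and 131 and 133 CPM in the controls. Dusp6 had 271 and 359 CPM with ATRA and 125 and 122 CPM in the controls. For both genes the groups were well apart, in opposite directions. The calls of the pathway lists made with GC correction were 0 when either control replicate was left out.

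**Figure D4:**
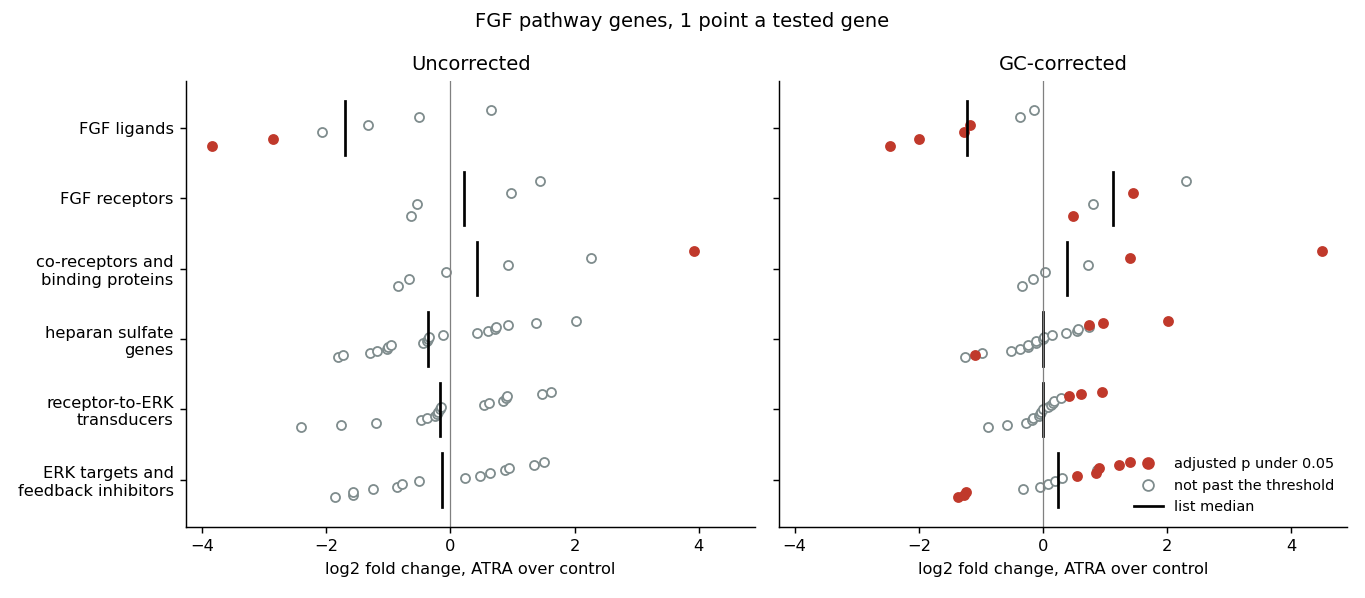
Log2 fold change of ATRA over control for each tested gene of the FGF pathway lists (rows), without (left) and with (right) GC correction. Red points pass an adjusted p of 0.05 and black lines are list medians. The median of the 6 ligand genes is −1.70, or −1.23 corrected, and the ERK targets and feedback inhibitors spread to both sides of 0.

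The genes whose levels over the 4 libraries ran most like those of Fgf8 and Fgf17, the 2 called uncorrected, were sought by Euclidean distance of centred log2 CPM (prior count 2). Nearest to Fgf8 were Krt42 (distance 0.271), Slc17a9 (0.274) and Slc5a11 (0.317). Nearest to Fgf17 were Rnf126 (0.0849), Acaa1b (0.138) and Nphs1 (0.169). With GC correction the log2 fold changes of Krt42, Slc17a9 and Slc5a11 were −2.51, −2.72 and −2.73, beside −1.99 for Fgf8. Those of Rnf126, Acaa1b and Nphs1 were −0.71, −1.38 and −1.53, beside −1.27 for Fgf17, with edgeR adjusted p of 0.106, 0.0612 and 0.0337.

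**Figure D5:**
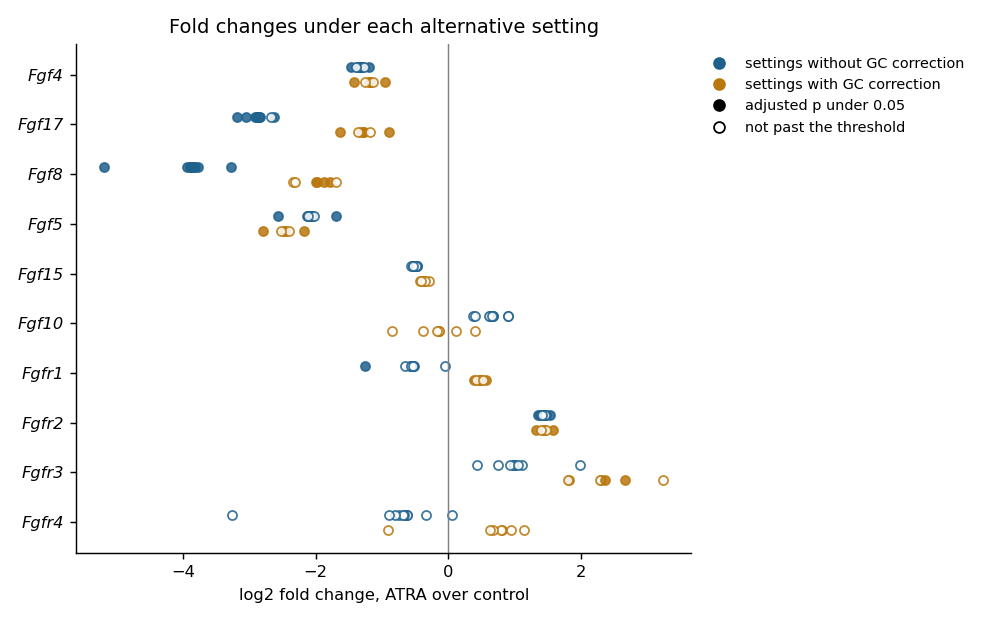
Log2 fold change of ATRA over control for each gene under each of 17 alternative settings (points), without GC correction in blue and with it in orange. Filled points pass an adjusted p of 0.05. Fgf4, Fgf17, Fgf8, Fgf5 and Fgf15 stay below 0 and Fgfr2 and Fgfr3 above it in every setting, while Fgf10, Fgfr1 and Fgfr4 lie on both sides.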

How the data were processed

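Groups and replicate numbers came from the sample titles. Per the labels' protocols, RNA was taken with Trizol and libraries followed Illumina's standard procedure. The authors deposited 1 table of raw read counts per library, whole numbers per gene symbol, with 5 summary lines, which were left out (reads in no annotated gene were 63.4% to 66.2% of all). Tools in the submitters' processing notes, without their roles, are HTSeq 0.6.0, TopHat2 2.0.7, Cuffdiff 2.0.2 and Cufflinks 2.0.2, and the build is mm10. For strand setting and annotation, no value was given in the sources used here. Reads where genes overlap could therefore be credited to the wrong gene or be left out as ambiguous (0.158% to 0.254% of all). In GENCODE M21, exons of Fgf10, Fgf15, Fgfr1, Fgfr2 and Fgfr3 overlap those of other genes, of which Ctbp2, overlapping Fgfr2, is in the tables.

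The counts were fitted in edgeR 4.0.16 (R 4.3.3) after its default filter by group and TMM scaling, by a robust quasi-likelihood fit (current method) without covariates, with Benjamini-Hochberg adjustment at 0.05. Each SE was computed as the absolute fold change over the root of its F statistic. GC content and length came from the longest coding transcript in GENCODE M21 (21777 symbols matched directly, 1259 through an older symbol, 384 without match), and 99.2% of tested genes had a value. For the GC correction, each library's deviation in log2 CPM (prior count 2) was fitted on GC content by a robust spline (5 degrees of freedom, MASS 7.3.60.0.1, genes above a mean of 1) and entered as offsets. Alternatives were DESeq2 1.42.0, its size factors, other filters, each library left out, a replicate block and the earlier quasi-likelihood method. Scripts were run on simulated counts without a GC trend, which does not test how well the correction removes one.

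Members and lists were chosen with earlier results of these data known. Genes named are all members, the called genes of each list or else its most abundant, and the 3 nearest patterns of each called member. Fgf2, Fgf3, Fgf6, Fgf18, Fgf21 and the markers named singly were chosen after their values were seen. Replicates differed by more than sampling noise (chi-square per degree of freedom 76.9 for ATRA and 9.65 for control libraries). Summed markers of neural progenitors were 299 and 398 CPM with ATRA and 383 and 323 CPM in the controls, of trophoblast 65.0 and 63.5 CPM with ATRA and 52.5 and 52.2 CPM in the controls, and of fibroblasts 226 and 134 CPM with ATRA and 367 and 331 CPM in the controls. Nes was the largest part of the neural sum (214 and 295 CPM with ATRA, 248 and 207 CPM in the controls). Of the 5 neural genes tested, 1 rose and 1 fell uncorrected, and 2 rose and 1 fell with GC correction. Sox1 rose (23.8 and 30.7 CPM with ATRA, 1.60 and 1.56 CPM in the controls). Tubb3 fell (20.0 and 9.80 CPM with ATRA, 113 and 95.9 CPM in the controls). Promoter sequences are RefSeq's (GRCm38.p6).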

Additional observations from a re-analysis of the deposited data

How the results depend on the processing

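Over 17 alternatives, Fgf4, Fgf5, Fgf8, Fgf15 and Fgf17 stayed lower with ATRA and Fgfr2 and Fgfr3 higher. With all libraries kept, Fgf8 and Fgf17 passed the threshold in every alternative except the earlier quasi-likelihood method without GC correction. Fgf4 and Fgf5 passed with DESeq2, with the replicate block and in each GC-corrected setting. Fgfr2 passed in the same settings and with DESeq2's size factors. Fgfr1 passed with GC correction by either method, and Fgfr3 only with GC correction and the replicate block. Fgf15, Fgf10 and Fgfr4 passed in no setting. Several of these settings also called far more of all genes, as given below. With a filter of 10 counts in 2 libraries, or no filter, the calls over all genes came to 181 and 174, against 161 without these changes, and those of members stayed at 2. DESeq2 called 4268 genes, 5 members and 21 genes of the other FGF pathway lists. Its size factors in edgeR gave 603, 3 and 6, with 232 of the 603 higher and 371 lower, against 103 higher and 58 lower with TMM. The earlier quasi-likelihood method gave 86, 0 and 0, and with GC correction 2374, 6 and 18. GC correction alone gave 2313, 6 and 17. Where calls or directions changed, the cause was not tested.

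With GC correction Fgf10 turned to −0.14 (also with the earlier method), Fgfr1 to 0.48 (0.48), Fgfr4 to 0.80 (0.80), Ndst2 to 0.75 (0.74), Hs6st1 to 0.97 (0.97) and Shc1 to 0.43 (0.43).

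Leaving out 1 library gave 125 to 10289 calls over all genes, 1 to 6 of members and 1 to 51 of the other lists. The calls over all genes were 10289 without ATRA replicate 1, 7302 without ATRA replicate 2, 125 without control replicate 1 and 662 without control replicate 2. With GC correction as well, they were 6699, 4941, 35 and 25, those of members 6, 7, 0 and 0, and those of the other lists 33, 30, 0 and 0. The lone library is then assumed to vary like the other group. In those GC-corrected fits Fgf10 stood at −0.84 without ATRA replicate 1 and −0.38 without control replicate 1, and at 0.40 and 0.11 without ATRA replicate 2 and control replicate 2. Without ATRA replicates 1 and 2 and control replicates 1 and 2, in this order, Fgfr1 stood at 0.39, 0.57, 0.41 and 0.52, Fgfr4 at −0.91, 1.14, 0.95 and 0.62, Ndst2 at 0.85, 0.67, 0.73 and 0.75, Hs6st1 at 0.93, 1.02, 0.94 and 0.97, and Shc1 at 0.44, 0.42, 0.45 and 0.38. Without correction, leaving out 1 library put Fgfr4 between −3.26 and 0.0586, Hs6st1 between −1.27 and 0.0869 and Shc1 between −0.50 and 0.11, each highest without ATRA replicate 2, and Spred3 between −0.013 (without control replicate 2) and 0.52.

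The labels give both groups replicates 1 and 2 without saying what a number shares. The correlation across genes of same-numbered deviations was 0.183, and −0.0349 after GC correction, and with 2 pairs it does not show that numbers pair the samples. The replicate block gave 4401 calls over all genes, 5 of members and 21 of the other lists. GC correction with the replicate block gave 2655, 6 and 19, and moved Fgf10 to −0.18, Fgfr1 to 0.47, Fgfr4 to 0.67, Ndst2 to 0.75, Hs6st1 to 0.97 and Shc1 to 0.43. Set against GC correction alone, the block ended the calls of Fgfr1 (edgeR adjusted p = 0.0654), Ndst2 (0.0573) and Shc1 (0.0833) and made that of Fgfr3 (2.37, 0.0269).

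Depth limits the scarce genes most: 3 counts, the limit that a count of 0 allows, stand for 0.212 and 0.309 CPM in the ATRA libraries and 0.0940 and 0.134 CPM in the controls, so Fgf8 in ATRA replicate 2 and Fgfr4 in the same library lie under it.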
